A study of Mus musculus with 9 samples.

Results

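Of 19938 genes measured in mouse ear skin, 8 are described here: Lpo, Mpo, Duox1, Duoxa1, Cybb, Aox4, Xdh and Uox, which encode enzymes that make or use hydrogen peroxide or superoxide, and 1 maturation factor. They were chosen by name as oxidase and peroxidase genes that differed by treatment in earlier results of these data. Each was read from the row of the deposited table whose annotation gave that symbol alone, and each had 1 probe set. The values that chose them are therefore given as a description, with no test, and tests are given only for genes outside the set.

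Total RNA of whole ear skin was hybridised to Affymetrix Mouse Gene 1.0 ST arrays. All mice were female, of C57BL/6 background and 7 to 9 weeks old. The anisomycin group received anisomycin, an antibiotic that blocks protein synthesis and activates stress kinases, as a solution of 2 mg/ml in 99.5% ethanol, of which 10 µl went onto either ear side, once daily for 5 days. The imiquimod group received 10 mg of a 5% cream of imiquimod, a ligand of Toll-like receptor 7 used to induce psoriasis-like dermatitis, once daily for 5 days. The vehicle group is labelled only as vehicle, so ethanol, cream base and length of treatment cannot be told apart from the agents. Each group had 3 arrays, and nothing in the labels says more of the animals behind them than n = 3, so the error describes the spread between these arrays, which may be technical. In RNA of a whole tissue, fewer cells of a type and less RNA per cell cannot be told apart. The number of arrays limits the precision.

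The enzymes form a small network. Dual oxidase 1, which needs its maturation factor (the product of Duoxa1) to leave the endoplasmic reticulum, releases hydrogen peroxide at the surface of epithelial cells. The phagocyte NADPH oxidase, whose catalytic subunit is encoded by Cybb, makes superoxide. Lactoperoxidase (Lpo), a secreted enzyme of milk, saliva and airway fluid, and myeloperoxidase (Mpo), an enzyme of the azurophil granules of neutrophils, use hydrogen peroxide to make antimicrobial oxidants. Aldehyde oxidase 4 (Aox4), known in mice from the Harderian gland and skin epithelium, and xanthine oxidoreductase (Xdh), which forms uric acid from purines, carry a molybdenum cofactor. Urate oxidase (Uox), a peroxisomal enzyme known mainly from mouse liver, breaks uric acid down and makes hydrogen peroxide.

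Promoter sequences of the 4 genes whose lowest imiquimod value lay furthest above the values of the other groups are shown first, because these genes had like profiles over the arrays. They come from RefSeq, build GRCm38.p6, written 5′ to 3′ on the gene's own strand from 250 bases before to 50 bases after the annotated start. RefSeq gave a promoter for 7 of the 8 genes, all but Xdh. Capitals mark matches on either strand to any of 6 motifs: TGANTCA (AP-1), TTCNNNGAA (STAT), a 10-base motif of interferon regulatory factors, a 10-base motif of NF-kB, TGACNNNGC (antioxidant response element) and the core promoter motif TATAAA.
Lpo (chr11:87826065-87826364, minus strand): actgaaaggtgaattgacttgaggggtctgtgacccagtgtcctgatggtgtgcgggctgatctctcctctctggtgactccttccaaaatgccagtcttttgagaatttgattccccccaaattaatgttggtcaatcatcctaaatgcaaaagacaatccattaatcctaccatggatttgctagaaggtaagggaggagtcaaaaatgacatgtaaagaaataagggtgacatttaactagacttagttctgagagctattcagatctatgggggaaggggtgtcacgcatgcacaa
Uox (chr3:146596899-146597198, plus strand): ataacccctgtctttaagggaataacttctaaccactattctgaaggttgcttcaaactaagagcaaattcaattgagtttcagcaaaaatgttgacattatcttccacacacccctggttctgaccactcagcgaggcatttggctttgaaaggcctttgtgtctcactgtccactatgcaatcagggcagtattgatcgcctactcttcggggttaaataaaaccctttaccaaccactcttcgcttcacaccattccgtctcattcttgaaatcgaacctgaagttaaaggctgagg
Aox4 (chr1:58210147-58210446, plus strand): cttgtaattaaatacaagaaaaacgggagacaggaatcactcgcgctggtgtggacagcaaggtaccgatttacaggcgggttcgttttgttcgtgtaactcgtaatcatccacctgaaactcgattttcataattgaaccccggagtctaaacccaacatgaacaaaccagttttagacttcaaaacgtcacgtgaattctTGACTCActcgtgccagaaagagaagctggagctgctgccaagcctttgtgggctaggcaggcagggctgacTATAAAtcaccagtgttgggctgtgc
Cybb (chrX:9469275-9469574, minus strand): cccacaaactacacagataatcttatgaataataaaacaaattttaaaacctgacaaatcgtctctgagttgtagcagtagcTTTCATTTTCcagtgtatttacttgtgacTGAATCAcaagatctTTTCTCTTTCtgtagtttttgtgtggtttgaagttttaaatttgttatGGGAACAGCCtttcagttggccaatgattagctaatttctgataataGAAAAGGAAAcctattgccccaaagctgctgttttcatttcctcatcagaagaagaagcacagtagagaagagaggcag
The Aox4 window held TGACTCA at bases -48 to -42 from the annotated start and TATAAA at bases 25 to 30, with the start as base 1. The Cybb window held 3 matches to the interferon regulatory factor motif, at bases -168 to -159, -124 to -115 and -29 to -20. It also held TGAATCA at bases -139 to -133 and the NF-kB match at bases -76 to -67. None of these matches overlapped another. Over 32851 RefSeq promoters of the same length, 7.81% held TGANTCA, 3.44% the interferon regulatory factor motif, 20.7% the NF-kB motif and 13.6% TATAAA. Sequences TTCNNNGAA and TGACNNNGC, held by 8.3% and 12.4% of promoters, were not in any of the 7 windows. The windows of Lpo, Uox, Duox1, Duoxa1 and Mpo held no match, which says only that these letters are not in them.

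On the arrays the 8 genes fell into 3 profiles. Lpo, Uox, Aox4, Cybb and Xdh were highest with imiquimod, Duox1 and Duoxa1 were highest with anisomycin, and Mpo lay at one low level throughout. Against vehicle, all 3 anisomycin arrays lay above all 3 vehicle arrays for 5 of the 8 genes, where 24.9% of all genes did so, and the arrays of Aox4, Cybb and Mpo overlapped. All 3 imiquimod arrays lay above all vehicle arrays for 7 of the 8 genes, where 24.4% of all genes did so. Between treatments, all anisomycin arrays lay above all imiquimod arrays for 2 genes and below them for 5, where 21.4% and 17.9% of all genes did so. Since the genes were chosen on these differences, nothing is read from those counts. For Mpo the values go against the naming of the set, as no difference between groups exceeded 0.08 on the log2 scale.

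**Figure D1:**
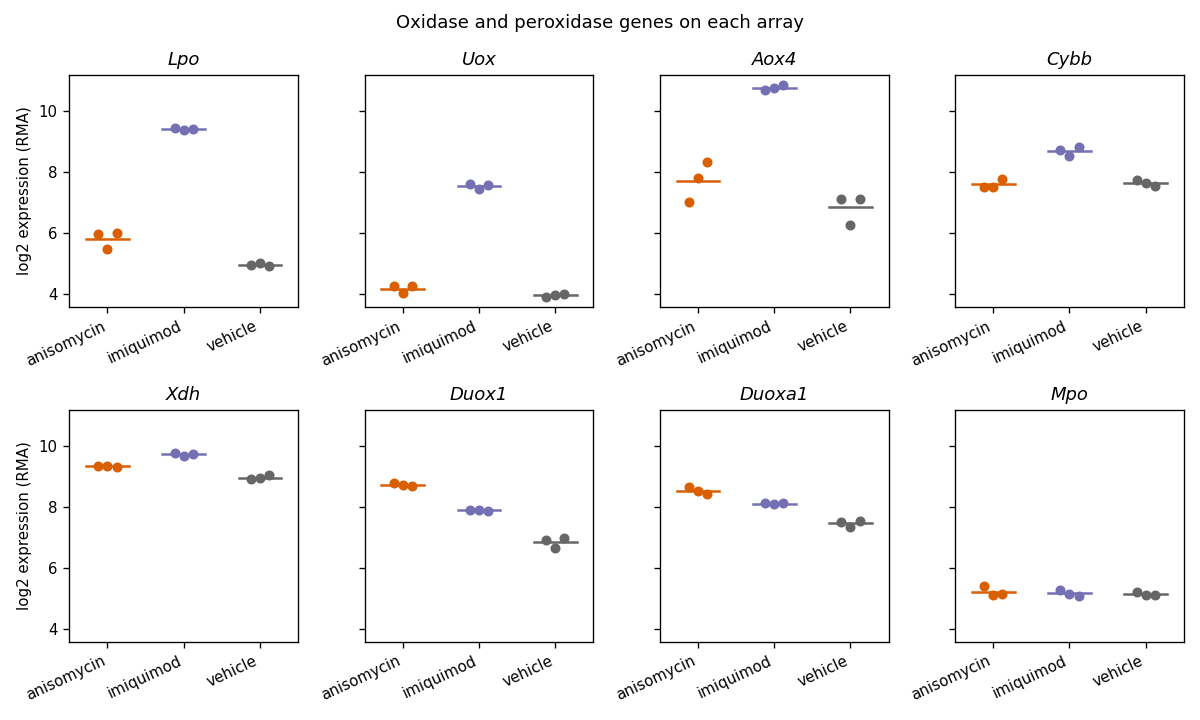
Log2 expression (RMA, vertical axis, the same in every panel) of the 8 genes on each of the 9 arrays. Points are arrays and lines are group means. Lpo, Uox and Aox4 stand apart in imiquimod ears, with means of 9.41, 7.53 and 10.75, while Duox1 is highest in anisomycin ears, with a mean of 8.72.

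**Figure D2:**
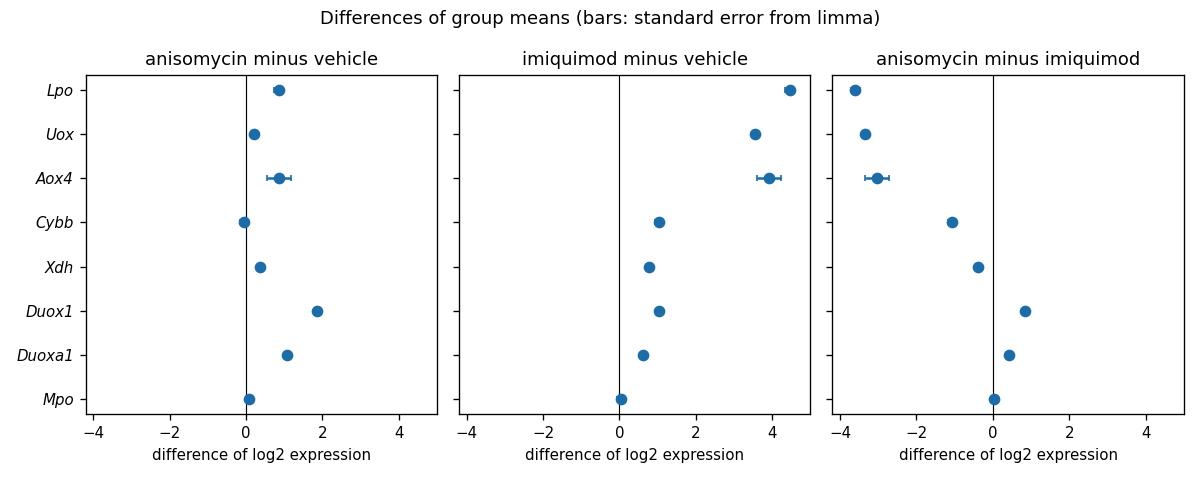
Differences between group means of log2 expression (horizontal axis) for the 8 genes in each comparison, with bars for limma's standard error (n = 3 arrays per group). Lpo, Uox and Aox4 lie between -3.60 and -3.03 in anisomycin minus imiquimod, and Duox1 lies at 0.84.

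The peroxidases differed most from each other. Lpo read 5.96, 5.49 and 6.00 on the log2 scale in anisomycin ears, 9.44, 9.39 and 9.42 in imiquimod ears and 4.94, 5.01 and 4.93 in vehicle ears. The groups did not overlap, and the imiquimod arrays lay together well above both other groups. The difference was 4.46 for imiquimod minus vehicle (SE 0.12, 22.0-fold) and 0.86 for anisomycin minus vehicle (SE 0.12, 1.82-fold). Anisomycin minus imiquimod was -3.60 (SE 0.12), and only 1 of the 19938 genes had a lower value there. Across alternative settings the imiquimod difference from vehicle stayed between 4.42 and 4.50 and that of anisomycin between 0.77 and 1.02.

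Mpo, next to Lpo on chromosome 11, read 5.41, 5.10 and 5.15 in anisomycin ears, 5.29, 5.15 and 5.09 in imiquimod ears and 5.21, 5.11 and 5.11 in vehicle ears. All groups overlapped. The differences were 0.08 for anisomycin minus vehicle and 0.03 for imiquimod minus vehicle (SE 0.09 each), and Mpo was among the dimmest 30% of genes, so a change of a dim transcript may not be visible on these arrays. The genes of other azurophil granule proteins were at low values too. The elastase gene Elane averaged 5.63 in anisomycin ears, 5.48 in imiquimod ears and 5.51 in vehicle ears, and neither it nor Prtn3 was called in any comparison, although Elane passed with anisomycin after repeated quantile normalization (adjusted p = 0.043). Ctsg fell by 0.29 with anisomycin and by 0.32 with imiquimod. The first of these calls ended without anisomycin replicate 1 or vehicle replicate 1 or 3 and after repeated quantile normalization, with adjusted p up to 0.0691. Of 5 measured genes of specific and gelatinase granules, 3 rose with each treatment and 0 fell. Of all genes 45.6% and 42.7% were called with anisomycin and imiquimod. Camp was not called, and neither was Ltf with imiquimod (0.05), though it rose by 0.76 with anisomycin. Between treatments Mmp9 was at 0.77 and Mmp8 at -0.79 (limma adjusted p = 0.00797 and 0.000312). Ltf was at 0.71 (adjusted p = 0.0136), which ended without imiquimod replicate 2 or 3 (up to 0.0509). Mature neutrophil genes moved in the same arrays. Cxcr2 rose by 4.97 with anisomycin and by 4.71 with imiquimod (limma adjusted p = 1.89e-08 and 3.14e-08). Csf3r rose by 4.74 and 4.06 and Ly6g by 0.97 and 1.64. Between treatments Csf3r was at 0.68 (adjusted p = 0.0267) and Ly6g at -0.67 (adjusted p = 0.0064). The Csf3r call ended without anisomycin replicate 1 or 2 or any imiquimod replicate (adjusted p up to 0.0948). Cxcr2 passed there only without anisomycin replicate 3 (0.00221). A sum of these genes is weighted to Cxcr2 and Csf3r, which were brighter than Ly6g in treated ears. The summed linear level of Cxcr2, Csf3r and Ly6g was 1428 to 2155 in anisomycin ears, 1369 to 1486 in imiquimod ears and 87 to 100 in vehicle ears, whereas that of Elane, Prtn3 and Ctsg was 112 to 120 in anisomycin ears, 108 to 111 in imiquimod ears and 117 to 122 in vehicle ears.

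Of the other haem peroxidases, the eosinophil peroxidase gene Epx lies close to Lpo, with Mks1, named only for its place, between them. Epx averaged 4.08, 4.07 and 4.07 in anisomycin, imiquimod and vehicle ears and was not called. At such low values a change may not be visible. Peroxidasin (Pxdn), which crosslinks basement membrane collagen, fell with imiquimod by 0.78 (SE 0.14, limma adjusted p = 0.00135). Its fall of 0.43 with anisomycin (adjusted p = 0.029) was no longer called without anisomycin replicate 1 or 3 or in a fit of the 2 groups alone (adjusted p up to 0.0943). Of the 2 genes measured in this list, 1 was lower with each treatment and 0 differed between treatments, by limma at an adjusted p under 0.05, where 45.6% and 42.7% of all genes were called for anisomycin and imiquimod against vehicle and 20.4% between treatments. Pxdn passed the threshold between treatments with the replicate block, without vehicle replicate 2 and in a fit of the groups compared alone (adjusted p 0.0146 to 0.0472). The gene of thyroid peroxidase was not analysed here.

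**Figure D3:**
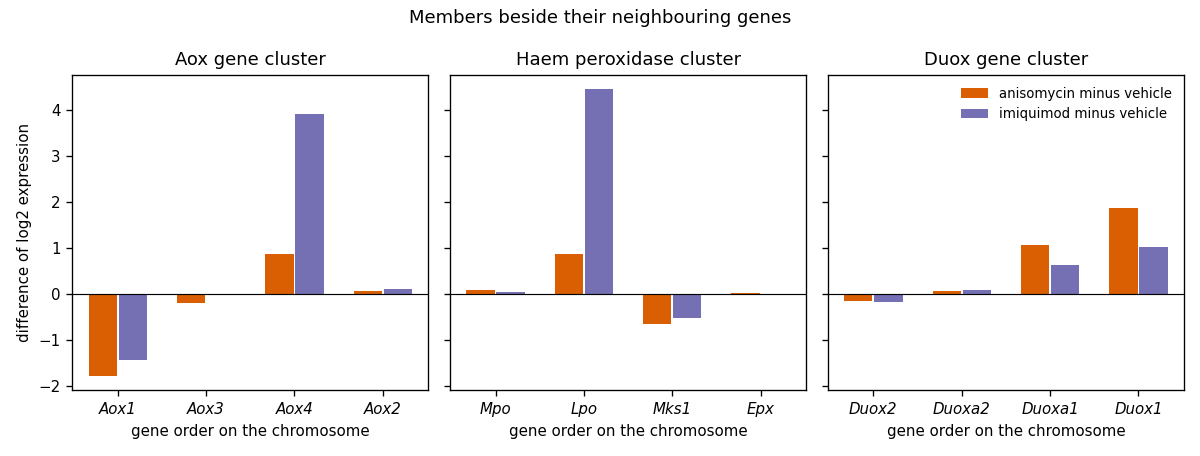
Differences of log2 expression from vehicle (vertical axis) for genes in chromosomal order in the Aox, haem peroxidase and Duox clusters. Orange bars are anisomycin minus vehicle and purple bars imiquimod minus vehicle. Aox4 and Lpo have bars of 3.91 and 4.46 with imiquimod beside neighbours at or below 0.11. The Duoxa1 and Duox1 bars stand beside near-zero bars of Duox2 and Duoxa2. Aox2, Aox3, Epx, Mpo, Duox2 and Duoxa2 read low in all groups, where a change may not be visible.

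Among the suppliers of hydrogen peroxide, Duox1 was, like Lpo, lowest in vehicle ears, but it was higher with anisomycin than with imiquimod. It read 8.77, 8.72 and 8.69 in anisomycin ears, 7.90, 7.90 and 7.85 in imiquimod ears and 6.92, 6.66 and 6.99 in vehicle ears. The groups did not overlap. Anisomycin minus vehicle was 1.87 (SE 0.08, 3.65-fold), imiquimod minus vehicle 1.03 (SE 0.08, 2.04-fold) and anisomycin minus imiquimod 0.84 (SE 0.08).

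Duoxa1, whose product is needed for a mature dual oxidase 1, read 8.64, 8.51 and 8.43 in anisomycin ears, 8.12, 8.08 and 8.12 in imiquimod ears and 7.51, 7.34 and 7.55 in vehicle ears. Its order was that of Duox1, with smaller differences. It was higher by 1.06 with anisomycin and by 0.63 with imiquimod (SE 0.07 each). The values of Duox1 and Duoxa1 had a Pearson r of 0.994 over the 9 arrays, which hold the group differences that chose both genes. Genes outside the set had higher values, such as Txndc17 with Duox1 and Cxcl16 with Duoxa1 (0.998 each). Duox1 and Duoxa1 are neighbours read from opposite strands, and their annotated starts lie 1942 bases apart.

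The paralogous pair beside them did not show this, but both genes were among the dimmest 30% of genes, where a change may not be visible. Duox2, the other dual oxidase gene, averaged 4.69 in anisomycin ears, 4.66 in imiquimod ears and 4.84 in vehicle ears. Its differences from vehicle were -0.15 (limma adjusted p = 0.0516) and -0.18 (adjusted p = 0.0306). The second of these calls ended without imiquimod replicate 2, vehicle replicate 2 or vehicle replicate 3 and under either rescaling of the arrays, with adjusted p up to 0.114. The anisomycin difference passed with a trended, robust prior and without imiquimod replicate 2 (adjusted p 0.036 to 0.0405). Duoxa2, its maturation factor, was at 0.07 and 0.08 from vehicle and not called.

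Cybb separated the treatments in another way. It read 7.52, 7.51 and 7.76 in anisomycin ears, 8.71, 8.51 and 8.82 in imiquimod ears and 7.74, 7.65 and 7.54 in vehicle ears. The imiquimod arrays lay above all others, and the anisomycin and vehicle arrays overlapped. Imiquimod minus vehicle was 1.04 (SE 0.10, 2.05-fold), anisomycin minus vehicle -0.05 (SE 0.10) and anisomycin minus imiquimod -1.08 (SE 0.10).

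The partners of the Cybb product rose with both treatments. Cyba, which encodes the other membrane subunit, rose by 1.06 with anisomycin and by 0.85 with imiquimod (limma adjusted p = 7.07e-06 and 3.51e-05). The cytosolic subunit genes Ncf1 and Ncf4 rose by 1.16 and 1.57 with anisomycin (SE 0.06 and 0.10) and by 0.70 and 1.23 with imiquimod. Ncf1 read 7.78, 7.65 and 7.59 in anisomycin ears, 7.21, 7.21 and 7.21 in imiquimod ears and 6.53, 6.52 and 6.49 in vehicle ears. Its order was thus anisomycin, imiquimod, vehicle without overlap, and it was higher with anisomycin than with imiquimod by 0.46 (limma adjusted p = 0.000916), where Cybb was lower by 1.08. Rac2, a GTPase of blood cells that activates the oxidase, rose by 1.82 and 1.88, and its ubiquitous relative Rac1 by 0.50 and 0.32. The rise of Rac1 with imiquimod was no longer called after repeated quantile normalization (adjusted p = 0.134).

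Between treatments, Ncf4 (0.34, limma adjusted p = 0.047) and Rac1 (0.18, adjusted p = 0.0439) passed the threshold narrowly. Each call ended under 9 settings, among them leaving out anisomycin replicate 1 or 2 or any imiquimod replicate, for Ncf4 also vehicle replicate 3 and for Rac1 also anisomycin replicate 3, with adjusted p up to 0.162 and 0.123. Over the 13 measured genes of oxidases, maturation factors and regulatory subunits outside the set, 5 rose and 1 fell with anisomycin, 46.2% called against 45.6% of all genes. With imiquimod 5 rose and 3 fell, 61.5% against 42.7%, and between treatments 3 were higher with anisomycin, 23.1% against 20.4%. The list's median differences were 0.03, -0.04 and 0.07, beside medians of -0.01, -0.03 and 0.01 over all genes. The number called between treatments was 1 without anisomycin replicate 1 or 2 or any single imiquimod array.

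Markers of phagocytes moved in these arrays as well. Of 6 measured monocyte and macrophage markers, 5 rose with each treatment, 83.3% called against 45.6% and 42.7% of all genes. The rise of Lyz2 with anisomycin was not called without anisomycin replicate 1 (limma adjusted p = 0.0697) or after repeated quantile normalization (0.53). The summed linear level of the 6 markers was 4283 to 4707 in anisomycin ears, 4811 to 5024 in imiquimod ears and 2258 to 2769 in vehicle ears. Between treatments, 2 of the 6 were higher and 2 lower with anisomycin, 66.7% called against 20.4% of all genes. Adgre1, which encodes a macrophage surface receptor, was lower with anisomycin than with imiquimod by 0.93 (SE 0.08, limma adjusted p = 0.000125), as Cybb was. Lyz2 was at -0.47 (adjusted p = 0.0155), a call that ended without anisomycin replicate 2 or imiquimod replicate 1 or 2 (up to 0.0619). Cd14 and Cd68 were higher by 0.96 and 0.40. Csf1r, the macrophage growth factor receptor gene, averaged 8.94, 9.05 and 8.95 in anisomycin, imiquimod and vehicle ears and was not called, except with anisomycin after repeated quantile normalization (adjusted p = 0.0294). The part of these cells in the values of Cybb and its partners was not tested.

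**Figure D4:**
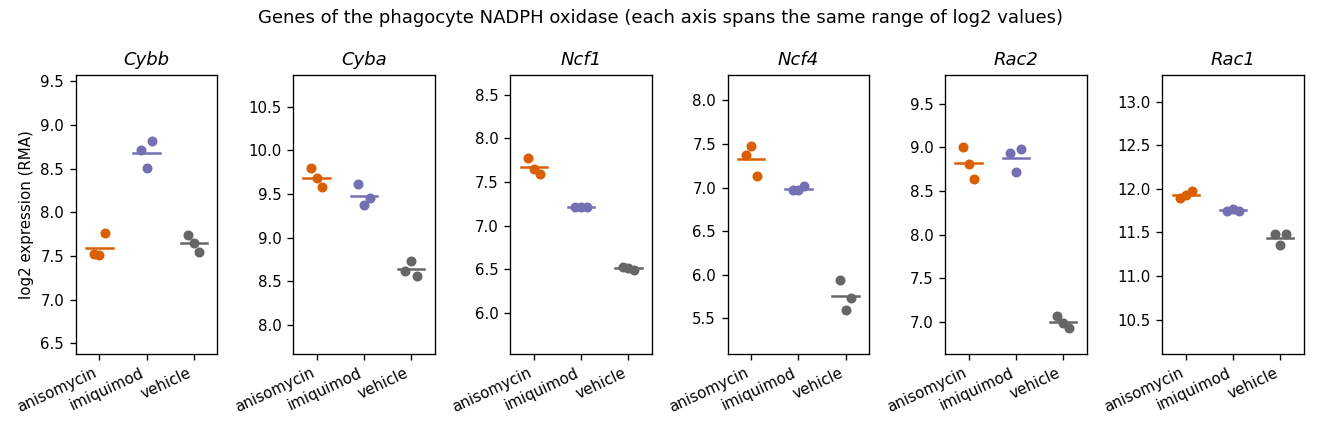
Log2 expression (RMA, vertical axis) of Cybb and of 5 partner genes of the phagocyte NADPH oxidase on each array. Points are arrays and lines group means, and every axis spans the same range of log2 units. Cybb in anisomycin ears (mean 7.60) lies at the vehicle level (mean 7.65), while Cyba, Ncf1, Ncf4, Rac2 and Rac1 lie above vehicle in both treatments.

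Of the molybdenum enzymes, Aox4 read 7.02, 7.80 and 8.34 in anisomycin ears, 10.68, 10.74 and 10.84 in imiquimod ears and 7.12, 6.28 and 7.13 in vehicle ears. The imiquimod arrays lay above all others, and the anisomycin arrays were spread widely and overlapped the vehicle arrays. Imiquimod minus vehicle was 3.91 (SE 0.32, 15.0-fold) and anisomycin minus imiquimod -3.03 (SE 0.32). Anisomycin minus vehicle was 0.87 (SE 0.32), and it depended on single arrays. It was 0.56 without anisomycin replicate 3, 0.59 without vehicle replicate 2 and 1.22 without anisomycin replicate 1.

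Sebaceous gland genes varied over the same anisomycin arrays. The summed linear level of the 6 markers was 4448, 6875 and 8026 in anisomycin replicates 1, 2 and 3, 8768, 10321 and 11094 in the imiquimod arrays and 10469, 10465 and 10095 in the vehicle arrays. In the anisomycin group, the array with the lowest Aox4 value also had the lowest sebaceous sum. Vehicle ears had high sums and low Aox4, but the sum is weighted to Scd1, the brightest marker. Scd1 averaged 11.90, 12.38 and 12.94 in anisomycin, imiquimod and vehicle ears. Of the 6 markers, 2 rose with imiquimod, the lipid synthesis genes Elovl3 by 1.93 and Awat1 by 1.97, and 2 fell, Scd1 and Mc5r. That was 66.7% called, against 42.7% of all genes. Like Aox4, Elovl3 and Awat1 had their highest means in imiquimod ears and their lowest in vehicle ears. Scd1, Mc5r, Awat2 and Fasn did not. The fall of Scd1 with imiquimod (-0.56, limma adjusted p = 0.0145) was not called without imiquimod replicate 1 (0.0582). With anisomycin 0 of the 6 sebaceous markers rose and 2 fell, 33.3% called against 45.6% of all genes. Elovl3 and Awat1 differed from vehicle by 0.34 and 1.05 without being called. Without anisomycin replicate 1 both differences passed (adjusted p = 0.0136 and 0.00965), as that of Awat1 did when the dimmest genes were left out (0.05 after rounding). Fasn, a fatty acid synthesis gene at -0.42 with anisomycin and not called (adjusted p = 0.0511), passed without anisomycin replicate 3 or vehicle replicate 3 and under 3 other settings (0.00417 to 0.0473). The 4 keratinocyte markers had a summed level of 20295 to 24387 in anisomycin ears, 26743 to 27279 in imiquimod ears and 17090 to 20458 in vehicle ears. They did not move together. With anisomycin Krt1 rose by 1.35 and Krt14 by 0.80, Krt10 fell by 0.69 (limma adjusted p = 0.00473) and Krt5 was not called. With imiquimod Krt1, Krt14 and Krt5 rose by 2.34, 0.67 and 0.25, and Krt10 was at -0.06 and not called. That was 75.0% called with each treatment, against 45.6% and 42.7% of all genes. The part of either cell type in the Aox4 values was not tested.

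The 3 aldehyde oxidase genes around Aox4 on chromosome 1 did not have its profile. Of these, Aox3 and Aox2 read low in all groups, where a change may not be visible. Aox1, the counterpart of the human aldehyde oxidase gene, fell by 1.79 with anisomycin and by 1.45 with imiquimod (limma adjusted p = 9.55e-06 and 4.53e-05), with readings of 5.36, 5.64 and 5.40 in anisomycin ears, 5.71, 5.80 and 5.92 in imiquimod ears and 6.90, 7.47 and 7.41 in vehicle ears. Aox1 was thus highest in vehicle ears, while Aox4 was highest in imiquimod ears. Between treatments it was at -0.34 (adjusted p = 0.142), and passed without vehicle replicate 1 or in a fit of those groups alone (adjusted p 0.0288 to 0.0407). Aox3 averaged 4.13, 4.30 and 4.33 in anisomycin, imiquimod and vehicle ears. Its anisomycin difference of -0.20 passed the threshold with a trended, robust prior or without anisomycin replicate 3 (adjusted p 0.0184 to 0.0401), though not in the fit reported (0.0546). Aox2, named for its place beside Aox4, was at 0.06 and 0.11 from vehicle and not called, though the second value passed with arrays centred on their medians (adjusted p = 0.0337).

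Xdh read 9.34, 9.33 and 9.31 in anisomycin ears, 9.78, 9.68 and 9.73 in imiquimod ears and 8.90, 8.95 and 9.03 in vehicle ears. The groups did not overlap, in the order imiquimod, anisomycin, vehicle. Imiquimod minus vehicle was 0.77 (SE 0.05, 1.70-fold), anisomycin minus vehicle 0.37 (SE 0.05, 1.29-fold) and anisomycin minus imiquimod -0.40 (SE 0.05). After repeated quantile normalization the differences from vehicle were 0.59 with imiquimod and 0.20 with anisomycin.

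Of the molybdenum cofactor genes, Mocs1 and Mocos rose with imiquimod. Mocs1, whose product starts cofactor synthesis, read 8.08, 8.25 and 8.28 in anisomycin ears, 8.59, 8.79 and 8.76 in imiquimod ears and 8.07, 8.14 and 8.17 in vehicle ears. Mocos, whose product adds the sulfur that aldehyde oxidases and xanthine oxidoreductase need, read 6.03, 5.91 and 6.13 in anisomycin ears, 6.43, 6.67 and 6.68 in imiquimod ears and 6.13, 6.17 and 5.90 in vehicle ears. For both genes the imiquimod arrays lay above all 6 others. Imiquimod raised Mocs1 by 0.58 (SE 0.07, limma adjusted p = 0.000167) and Mocos by 0.52 (SE 0.10, adjusted p = 0.00189). With anisomycin they were at 0.07 and -0.04 and not called. The difference between treatments was itself called, at -0.51 for Mocs1 (adjusted p = 0.00188) and -0.57 for Mocos (adjusted p = 0.00419), and these calls held under every alternative run.

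The other cofactor genes were not called with imiquimod. Mocs2, at -0.29 with anisomycin and -0.04 with imiquimod, was not called, but its anisomycin difference (adjusted p = 0.0636) passed without anisomycin replicate 3 or vehicle replicate 2 and under 3 other settings (0.0271 to 0.048). Mocs3 rose with anisomycin by 0.31 (adjusted p = 0.00415) and was at 0.18 with imiquimod (0.0643), which passed without vehicle replicate 2 and under either rescaling (0.0159 to 0.0456). Gphn, whose product inserts the molybdenum, was lower with anisomycin than with vehicle by 0.29 and than with imiquimod by 0.31, but these calls ended without anisomycin replicate 1 or 2, the first also without vehicle replicate 3 and the second also without any single imiquimod replicate or in a fit of those groups alone (adjusted p up to 0.061 and 0.0981). Sulfite oxidase (Suox), which uses the cofactor without added sulfur, fell by 0.98 with anisomycin and by 0.86 with imiquimod (adjusted p = 4.08e-05 and 0.000111). Mocs2 and Mocs3 are named here because they complete the cofactor pathway, and were chosen after their values were seen.

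Uox read 4.25, 4.05 and 4.25 in anisomycin ears, 7.60, 7.43 and 7.56 in imiquimod ears and 3.92, 3.98 and 4.02 in vehicle ears. The imiquimod arrays stood far above the rest, and the anisomycin arrays lay just above the vehicle arrays. Imiquimod minus vehicle was 3.56 (SE 0.07, 11.8-fold), anisomycin minus vehicle 0.21 (SE 0.07) and anisomycin minus imiquimod -3.34 (SE 0.07). Its mean over the 9 arrays, 5.23, put it among the dimmest 30% of genes with Mpo, and a filter on dim genes therefore kept 6 of the 8 genes and would have dropped Uox in spite of its imiquimod values. From such low vehicle values the fold may be understated.

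Uox is an enzyme known from liver. Markers of hepatocytes read low in all groups, so they cannot show the cell source of Uox, which was not tested. Alb averaged 4.39, 4.26 and 4.34 in anisomycin, imiquimod and vehicle ears. Of 5 hepatocyte markers 0 rose and 1, Cyp2e1, fell with each treatment, and 0 differed between treatments. Tat, at -0.04 with anisomycin, passed without vehicle replicate 1 (limma adjusted p = 0.0476). The summed linear level of these markers was 138 to 148 in anisomycin ears, 137 to 147 in imiquimod ears and 165 to 184 in vehicle ears.

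Elsewhere in purine breakdown, Gda and Urah were among the genes that rose with both treatments. Guanine deaminase (Gda), which makes xanthine, rose by 2.06 with anisomycin and by 1.89 with imiquimod (limma adjusted p = 3.8e-07 and 9.86e-07). Urah, which hydrolyses the product of urate oxidase, rose by 2.17 and 2.09 (adjusted p = 1.82e-07 and 3.99e-07). It read 11.63, 11.81 and 11.78 in anisomycin ears, 11.71, 11.65 and 11.63 in imiquimod ears and 9.70, 9.37 and 9.64 in vehicle ears. Both genes separated treated from vehicle ears, and Urah was at 0.08 between treatments (adjusted p = 0.612). Gda, at 0.17 between treatments (adjusted p = 0.269), passed without anisomycin replicate 3 (0.0237).

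Ampd1, the AMP deaminase gene of skeletal muscle, fell by 0.90 with anisomycin and by 1.47 with imiquimod (limma adjusted p = 0.00192 and 0.000112). All 4 skeletal muscle markers fell in these arrays, and their summed linear level was 1441 to 1611 in anisomycin ears, 1177 to 1977 in imiquimod ears and 4740 to 7934 in vehicle ears. The Ampd1 call between treatments (0.57, adjusted p = 0.0435) ended after repeated quantile normalization. It also ended without any single anisomycin or imiquimod replicate or vehicle replicate 1, with adjusted p up to 0.131 over these settings. Over the 22 measured genes of molybdenum enzymes, their cofactor and purine breakdown outside the set, 7 rose and 7 fell with anisomycin, which is 63.6% called against 45.6% of all genes. With imiquimod 8 rose and 5 fell (59.1% against 42.7%), and between treatments 2 were higher and 3 lower with anisomycin (22.7% against 20.4%). The median differences were 0.04, 0.07 and -0.09. Without anisomycin replicate 1 or 2 or imiquimod replicate 2 or 3, the number called between treatments was 3, and without imiquimod replicate 1 it was 2.

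**Figure D5:**
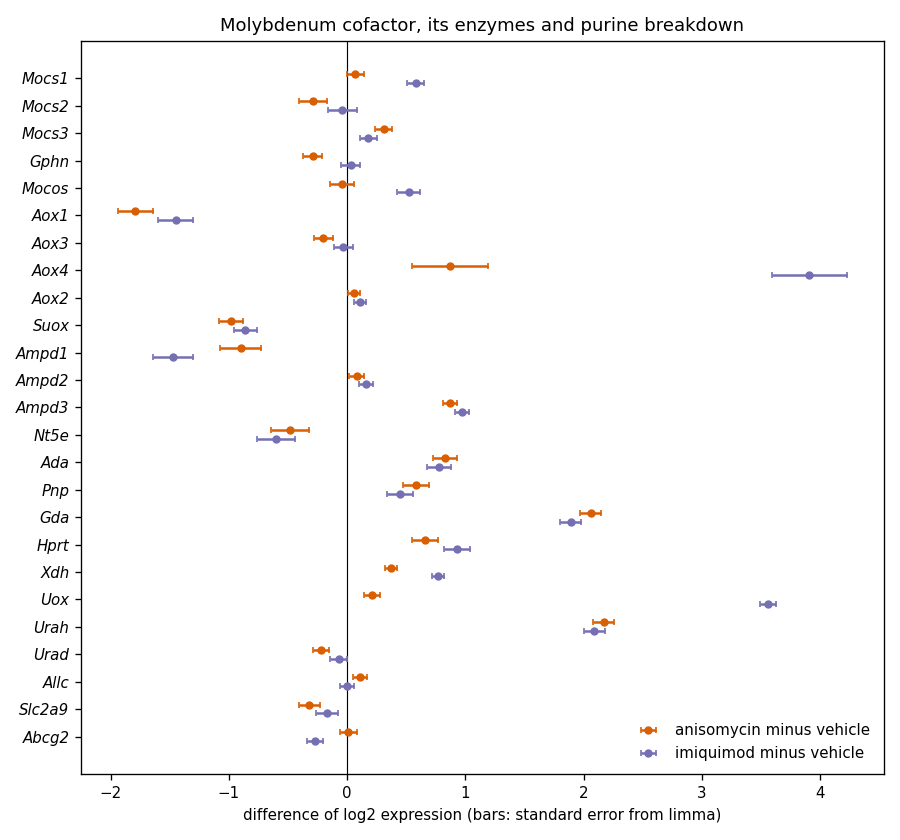
Differences of log2 expression from vehicle (horizontal axis) for the measured genes of molybdenum cofactor synthesis, its enzymes and purine breakdown, with Aox4, Xdh and Uox placed among them. Orange points are anisomycin and purple points imiquimod, with bars for limma's standard error (n = 3 arrays per group). Aox4 and Uox stand out with imiquimod at 3.91 and 3.56, Urah and Gda are near 2 with both treatments, and Mocs1 and Mocos are off 0 with imiquimod.

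Other oxidases that form hydrogen peroxide were moved in both directions. Spermine oxidase (Smox) had the largest change of the list, with rises of 2.63 with anisomycin and 2.83 with imiquimod (limma adjusted p = 2.31e-08 and 1.53e-08), and was not called between treatments. Monoamine oxidase A (Maoa) rose by 1.09 and 0.80. It was not called between treatments (0.29, adjusted p = 0.192) but passed without anisomycin replicate 1 (0.0308). The lysyl oxidase gene Loxl4 fell by 1.16 with anisomycin and by 1.13 with imiquimod, and the vascular and adipocyte amine oxidase gene Aoc3 by 1.32 and 1.33. The peroxisomal oxidase gene Acox3 fell more with anisomycin, by 0.81 against 0.34 with imiquimod, and that difference of -0.47 was called (adjusted p = 0.00251). Lysyl oxidase (Lox) fell with imiquimod by 0.49 and was at 0.03 with anisomycin, a difference of 0.52 (adjusted p = 0.00976).

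Several calls in this list changed when 1 array was left out. Acox2, a peroxisomal oxidase gene of bile acid synthesis, rose by 1.44 with imiquimod (limma adjusted p = 0.00075). Its anisomycin rise of 0.75 was not called without anisomycin replicate 2 or 3 or vehicle replicate 2 or 3 (adjusted p up to 0.0774), and its difference between treatments of -0.69 (adjusted p = 0.0649) passed without anisomycin replicate 3 or imiquimod replicate 1, without dim genes and with the replicate block (adjusted p 0.0157 to 0.0461). Loxl1 was higher with anisomycin than with vehicle by 0.41 and than with imiquimod by 0.53. Both calls ended without anisomycin replicate 1 or 2, the first also without vehicle replicate 1 or 3 and after repeated quantile normalization and the second also without imiquimod replicate 1 or 3 (adjusted p up to 0.142 and 0.0598). Pcyox1, of an oxidase that degrades prenylated cysteine, was at -0.56 with anisomycin against vehicle and -0.71 against imiquimod. It lost the first call without anisomycin replicate 1 or 2, vehicle replicate 1 or 3 or in a fit of 2 groups, and the second without anisomycin replicate 2 or imiquimod replicate 2 or 3 (adjusted p up to 0.0946 and 0.0744). Of the 19 genes measured here, 6 rose and 7 fell with anisomycin (68.4% called against 45.6% of all genes), 4 rose and 7 fell with imiquimod (57.9% against 42.7%), and 3 were higher and 3 lower with anisomycin than with imiquimod (31.6% against 20.4%). The number called between treatments was 2 without anisomycin replicate 2 or imiquimod replicate 3 and 3 without imiquimod replicate 2.

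Enzymes that remove superoxide and peroxide were also split. The mitochondrial superoxide dismutase gene Sod2 rose by 0.92 with anisomycin and by 0.71 with imiquimod (limma adjusted p = 0.000101 and 0.000609), and differed between treatments (0.21, adjusted p = 0.231) only without anisomycin replicate 3 (0.0216). Gpx2, an epithelial glutathione peroxidase gene, rose by 1.04 and 1.55 and was lower with anisomycin than with imiquimod by 0.50 (adjusted p = 0.00906). Gpx3, of the secreted form, fell by 1.11 and 1.05. Catalase (Cat) fell by 0.79 with anisomycin (adjusted p = 0.000975) and by 0.46 with imiquimod (0.0204). The second of these calls ended without imiquimod replicate 1 or vehicle replicate 1 or 3 (adjusted p up to 0.0804), and Cat passed between treatments (-0.33, 0.128) only without anisomycin replicate 3 (0.0316).

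Gpx8, an endoplasmic reticulum peroxidase gene, moved in opposite directions, with 0.52 for anisomycin and -0.38 for imiquimod against vehicle, and 0.90 between treatments (limma adjusted p = 0.00133). Its imiquimod fall was not called without imiquimod replicate 1 or 3 or vehicle replicate 1 or 3, or with arrays centred on their medians (adjusted p up to 0.0938). The extracellular superoxide dismutase gene Sod3 rose with anisomycin by 0.65 and was at 0.08 with imiquimod. Its difference between treatments (0.57, adjusted p = 0.0257) was not called without anisomycin replicate 1 or 2 or imiquimod replicate 1 or 3 or in a fit of those groups alone (up to 0.0938). Gpx1 rose with imiquimod by 0.76. Its anisomycin difference was 0.26 (adjusted p = 0.00341), and -0.04 after repeated quantile normalization, so its direction depends on scaling, while anisomycin minus imiquimod was -0.50 (adjusted p = 0.00049). Of the 16 measured genes, 6 rose and 4 fell with anisomycin (62.5% called against 45.6% of all genes), 6 rose and 5 fell with imiquimod (68.8% against 42.7%), and 3 were higher and 3 lower with anisomycin than with imiquimod (37.5% against 20.4%). The number called between treatments was 3 without anisomycin replicate 1 or without imiquimod replicate 1.

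Genes whose profile over the 9 arrays was most like that of each member were taken by Pearson r, as a description, since the points share the 9 arrays and the differences between groups. The lipoxygenase gene Alox8 was nearest to Uox (r = 0.998) and second for Lpo (r = 0.992), with means of 6.33, 10.79 and 5.90 in anisomycin, imiquimod and vehicle ears. Lpo was also close to Fchsd1 (0.996) and to the dicarboxylate transporter gene Slc13a3 (0.992). For Uox, Cd300e (0.989) and the cytokine gene Il17f (0.984) followed. Il17f averaged 5.57, 6.38 and 5.56 in anisomycin, imiquimod and vehicle ears. Aox4 was nearest to the mitotic kinesin gene Kif23 (0.993), Prss53 (0.992) and Hip1r (0.991).

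The remaining members had other companions. Cybb was nearest to the myeloid receptor gene Cd300e (0.989), the heparanase gene Hpse (0.980) and Pdzk1ip1 (0.977). Xdh was nearest to Adgre1 (0.990), the beta-defensin gene Defb3 (0.990) and Sprr2b (0.987), a gene of a near-identical family whose probe sets can share signal. Duox1 was nearest to Txndc17 (0.998), Csnk1d (0.997) and the basal keratinocyte factor gene Bnc1 (0.997), and Duoxa1 to the chemokine gene Cxcl16 (0.998), Ap3s1 (0.998) and Eif1a (0.998). For Mpo the highest r values were 0.950 (Gchfr), 0.940 (Slc29a4) and 0.940 (Olfr20), over arrays whose group means differed by at most 0.08. Among the members, Lpo, Uox, Aox4, Cybb and Xdh had r values of 0.830 to 0.991 with each other, while with these 5 genes Duox1 had values from 0.011 (Cybb) to 0.521 (Xdh) and Duoxa1 from 0.061 (Cybb) to 0.567 (Xdh).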

How the data were processed

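The authors deposited 1 table of log2 expression values for 9 arrays, made with RMA (background correction, quantile normalization and probe-set summary), per the submitters' processing notes. Not given in the sources used here are its version and the genome build. The log2 scale was judged from the range of 2.39 to 13.97, and array medians were 6.01 for anisomycin, 6.02 to 6.03 for imiquimod and 6.08 to 6.10 for vehicle. Of 35556 rows, 21789 carried 1 symbol, and for a gene with several the probe set with the highest mean was kept, leaving 19938 genes with no filter. Group means over all 9 arrays were fitted with limma 3.58.1 in R 4.3.3 (6 residual and 3.16 prior degrees of freedom), with two-sided contrasts and Benjamini-Hochberg adjustment over all genes, and genes were called at an adjusted p under 0.05. The fit was tested on simulated data. Members and lists were chosen with earlier results of these data known, and no list was tested as a set. Named list genes were up to 4 called genes per list and comparison by size of change, plus 11 fixed symbols, and for each member the 3 genes of highest Pearson r. Alternatives were a trended, robust prior, leaving out the dimmest 30% of genes, repeated quantile normalization, median centring, the mean of probe sets, a block for replicate number, omission of each array, and fitting only the groups compared.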

Additional observations from a re-analysis of the deposited data

How the results depend on the processing

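The values of the 8 members kept their sign under every alternative, except for Mpo and for Cybb with anisomycin against vehicle, whose differences lay near 0. The Cybb difference was 0.00 to 2 decimals without vehicle replicate 1, against -0.05 in all arrays. Members moved by less than the spread between arrays in all but 4 cases, 3 of them Xdh after rescaling. Genes called numbered 9095 for anisomycin against vehicle (7921 to 8725 leaving out 1 array), 8519 for imiquimod against vehicle (7265 to 8611) and 4059 between treatments (2523 to 4766). Leaving out 1 array, list genes called between treatments numbered 1 to 3 for NADPH oxidases, 0 to 1 for haem peroxidases, 2 to 6 for molybdenum enzymes and purine breakdown, 2 to 7 for other oxidases and 3 to 7 for superoxide and peroxide removal. Haem peroxidases against vehicle numbered 0 to 1 with anisomycin, and 0 in a fit of those groups alone. With the trended, robust prior 1 NADPH oxidase gene was called between treatments. With the replicate block 1 NADPH oxidase gene and 1 haem peroxidase gene were called there, and 1 haem peroxidase gene in a fit of the groups compared alone; the cause was not tested. Gpx1 with anisomycin was at -0.04 after repeated quantile normalization, where all genes share 1 distribution of values. Same-numbered arrays had correlations of deviations from -0.201 to 0.196 across genes. Arrays of unlike number were not compared, so these values cannot decide whether the replicate numbers pair the samples. The block for replicate number gave 8924, 8280 and 3734 calls. Signal over background was not analysed here, which limits what can be said of dim genes such as Mpo, and Uox in vehicle ears.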
